A study of Mus musculus with 18 samples.

Results

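Cultured primordial germ cell-like cells (PGCLC) labelled FGF2 were compared with those labelled FGF10, in 4 of the 18 mouse libraries of the series. The libraries were taken by their titles, 2 for d4c7+FGF2 and 2 for d4c7+FGF10, and all genes were followed. All 4 come from B6D2F1 cells that carry a Blimp1-mVenus and a Stella-ECFP reporter. Day-4 PGCLC, made from embryonic stem cells by way of epiblast-like cells (EpiLC), were sorted, cultured for 7 days on m220-5 feeder cells stopped with mitomycin C, and the cultured libraries are labelled as sorted for mVenus. The protocol lists one culture medium, with 100 ng/ml stem cell factor (SCF), 10 µM forskolin, rolipram and 2.5% FCS, for all cultured cells. It does not say whether forskolin and rolipram stayed in the FGF cultures, and neither the dose of each FGF nor what the number in "FGF10" stands for is given in the sources used here. The same culture labelled FR10 (forskolin and rolipram) or CsA (cyclosporin A), with 2 libraries each, is set beside the FGF groups as background. The protocols call the replicates of cultured conditions biological, and all cells carry the same reporters.

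Fibroblast growth factors bind FGFR receptor tyrosine kinases together with heparan sulphate and signal through FRS2, RAS, the ERK kinases and PI3K. ERK signalling induces transcription factors such as ETV4 and ETV5 and its own inhibitors, the Sprouty, SPRED and DUSP proteins. FGF2 acts on the c isoforms of several receptors, whereas FGF10 is known chiefly as a ligand of the b isoform of FGFR2. Germ cell precursors also need KIT, the receptor for SCF, for survival and migration. FGF2 with SCF and LIF is the classical mixture that turns primordial germ cells into pluripotent embryonic germ cell lines in culture.

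The values are RPM, the authors' read numbers scaled to a common library total, from SC3-seq, a 3′ end sequencing method, started from 1 ng of RNA. The steps between low values put the depth at 2627833 and 4114788 reads for FGF2 replicates 1 and 2, and at 2696999 and 3268357 for FGF10. At these depths 3 reads equal 1.14, 0.729, 1.11 and 0.918 RPM, in the same order. The FGF2 replicates were further apart than the FGF10 replicates, with a median absolute log2 difference of 0.468 against 0.29, and 19.5% against 8.39% of genes differed by more than 1 on the log2 scale. Thinned to the same 2129326 reads, FGF2 replicate 2 had 12047 detected genes, the fewest of the 8 d4c7 libraries, and its 100 most abundant genes took 45.03% of the reads. That library is 1 of 3 replicate 2 libraries that stand apart, with those of cultured E9.5 germ cells in FR10 and in CsA, and results are given with and without it.

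Of 9561 genes tested, 9 passed the test, and all 9 were lower in FGF2 than in FGF10. They were the transcription factor genes Tcf4 and Dmtf1, the glycosyltransferase gene Galnt7, the SCF receptor gene Kit, the tRNA modification gene Alkbh8, Ccdc152, the Nodal inhibitor gene Lefty2, the BAX-binding protein gene Moap1 and Rheb, which encodes the GTPase that activates mTORC1. The test was limma on log2(RPM + 1) over all 18 libraries, with Benjamini-Hochberg adjustment and a threshold of 0.05. The share called lower was 0.0941% and the share called higher was 0%. At an unadjusted p under 0.05 the counts were 1352 lower and 235 higher, and voom, run on the inferred reads, called 0 genes. The RPM of the 2 groups did not overlap for 34.1% of genes in the lower direction and for 12.4% in the higher direction. The median difference of all genes was −0.23 on the log2 scale, and median-ratio scaling, which moved it to −0.01, left 3 calls (0.0314%), all lower.

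**Figure D1:**
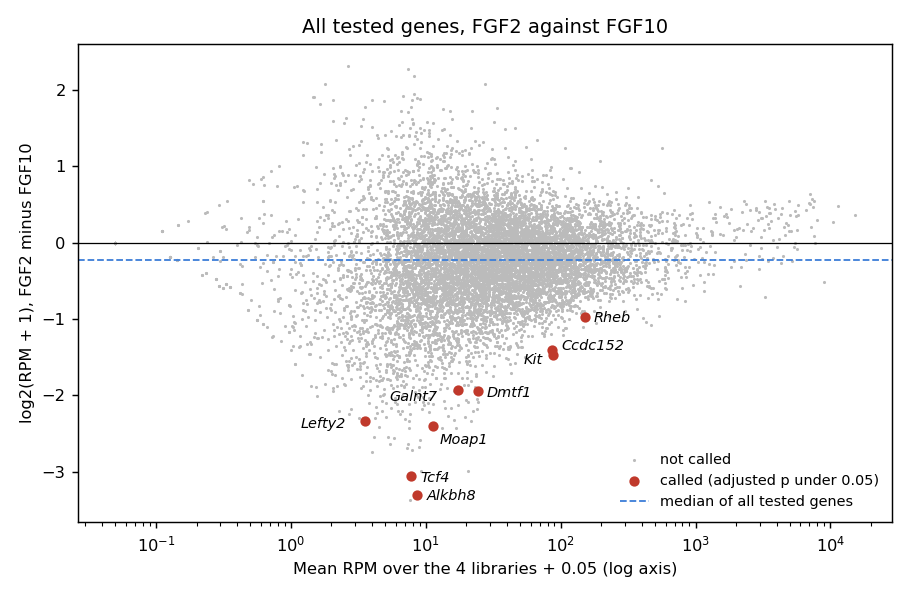
The difference FGF2 minus FGF10 in log2(RPM + 1) is plotted against the mean RPM of the 4 libraries (log axis), with 1 point for each of 9561 genes. The 9 called genes, in red, all lie below 0, and the median of all genes (dashed) lies at −0.23.

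The calls depended on which libraries entered the fit. A fit without an FGF library left 1 library in that group, which then added nothing to the estimated spread. The median residual SD was 0.351 without FGF2 replicate 2 alone. It was 0.269 without the 3 libraries that stand apart, which include 2 of cultured E9.5 germ cells. Calls kept in such fits are therefore not separate support. Without FGF2 replicate 1 there were 708 calls, 670 lower and 38 higher, and without FGF2 replicate 2 there were 4, all lower. Without FGF10 replicate 1, and likewise without FGF10 replicate 2, there was 1. Tcf4 was called in each of these 4 fits, and it was the one gene of the 9 called without FGF2 replicate 2. With the spread estimated from the 12 cultured, the 8 d4c7 or the 4 FGF libraries alone no gene was called, and the adjusted p of the 9 genes was then 0.133 to 0.475. Leaving out the 3 libraries that stand apart gave 180 calls, 168 lower (1.76%) and 12 higher (0.126%), with all 9 genes among them. With median-ratio scaling as well there were 71 calls, 57 lower and 14 higher, with 6 of the 9 among them. Simulated data were given the spread of each group and 200 changed genes. In them the procedure found 9.5% of 2-fold, 71% of 4-fold and 87% of 8-fold changes. Most 2-fold differences were thus below what 2 libraries a group could show. There were 2, 28 and 33 false calls among 21, 170 and 207 calls in all. With equal spread in all groups, 3, 7 and 7 of 37, 152 and 184 calls were false. At 4-fold and 8-fold the false share was thus larger with the spread of each group. The share of false calls among the 9 genes was not tested.

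Tcf4, which encodes an E protein that pairs with tissue-specific bHLH factors, stood at 0.761 and 0.972 RPM in FGF2 and at 14.5 and 14.7 RPM in FGF10. The FR10 libraries had 15.1 and 17.3 RPM and the CsA libraries 4.05 and 6.65. The FGF2 values, 2 and 4 inferred reads, were below those of every other d4c7 library. The log2 difference was −3.06 ± 0.36 (SE), with an adjusted p of 0.00148 in limma, and it was called in 13 of 18 alternative settings. For a gene this low, the difference on the log2(RPM + 1) scale depends on the pseudocount. Tcf4 lies on chromosome 18, 69343356 to 69689079 (GRCm38, forward strand).

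Galnt7, an enzyme that adds N-acetylgalactosamine in mucin-type O-glycosylation, stood at 6.85 and 6.32 RPM in FGF2 and at 29.3 and 26.6 RPM in FGF10. The FR10 and CsA libraries lay between 25.2 and 36.8 RPM, so the FGF2 libraries were the low ones. The mean was 4.25-fold higher in FGF10 and the log2 difference was −1.93 ± 0.28 (SE, adjusted p = 0.015 in limma). Dmtf1, a cyclin D-binding Myb-like transcription factor known for activating the Arf tumour suppressor gene, stood at 9.89 and 8.75 RPM in FGF2 and at 34.9 and 43.1 RPM in FGF10. CsA libraries had 13.9 and 16.0 RPM and FR10 libraries 70.9 and 42.1, so the 2 FGF groups lay on either side of CsA without overlap. The mean of Dmtf1 was 4.18-fold higher in FGF10 and the log2 difference was −1.95 ± 0.29 (adjusted p = 0.015). Galnt7 lies on chromosome 8, 57523828 to 57653032, and Dmtf1 on chromosome 5, 9118801 to 9161776, both on the reverse strand. Dmtf1 overlaps Tmem243 on the other strand, and whether counting used the strand is not given in the sources used here.

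Kit, the receptor for the SCF in the medium and a marker of primordial germ cells, stood at 43.4 and 48.1 RPM in FGF2 and at 114 and 145 RPM in FGF10. CsA libraries had 71.8 and 89.4 RPM and FR10 libraries 230.0 and 182, so the 4 groups stood in the order FGF2, CsA, FGF10 and FR10 with no overlap between neighbours. Kit was 2.83-fold higher in FGF10 than in FGF2, a log2 difference of −1.47 ± 0.25 (SE, adjusted p = 0.041 in limma). In sorted bulk cells, fewer cells of a type and less RNA per cell cannot be told apart. Without FGF2 replicate 2 Kit was not called, and nor was it after median-ratio scaling, where the difference was −1.24. Kit lies on chromosome 5, 75574916 to 75656722, on the forward strand.

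Rheb, the GTPase through which growth factor signals switch on mTORC1, stood at 107 and 96.5 RPM in FGF2 and at 183 and 217 RPM in FGF10. CsA libraries had 113 and 122 RPM, just above FGF2, and FR10 libraries had 255 and 209.9 RPM. It was 1.97-fold higher in FGF10 and had the smallest change of the 9, with a log2 difference of −0.97 ± 0.18 (SE, adjusted p = 0.0419 in limma). Rps6kb1, which encodes the S6 kinase that mTORC1 phosphorylates, was the gene with the next smallest p, at 19.4 and 11.4 RPM in FGF2 and 56.4 and 40.4 in FGF10. It did not pass the test (log2 difference −1.61 ± 0.31, adjusted p = 0.0569). Rheb lies on chromosome 5, 24802823 to 24842624, on the reverse strand.

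Alkbh8, a methyltransferase of the tRNA wobble position, stood at 1.9 and 0 RPM in FGF2 and at 20.0 and 12.5 RPM in FGF10. Its log2 difference was −3.31 ± 0.58 (SE, adjusted p = 0.041 in limma). Lefty2, a secreted antagonist of Nodal, stood at 1.14 and 0 RPM in FGF2 and at 7.42 and 5.51 RPM in FGF10. Its log2 difference was −2.34 ± 0.41 (adjusted p = 0.041). In both genes FGF2 replicate 2 is listed at 0 and FGF2 replicate 1 holds at most 5 inferred reads, so the size of the difference is poorly determined. Moap1, known as a partner of BAX in apoptosis, stood at 5.33 and 1.22 RPM in FGF2 and at 14.8 and 23.6 RPM in FGF10, with CsA and FR10 between 15.9 and 20.9 RPM. Its log2 difference was −2.40 ± 0.43 (adjusted p = 0.041), and it lies within the readthrough models Gm28051 and Gm20604 on the same strand. Lefty2 lies on chromosome 1, 180893108 to 180899103, Alkbh8 on chromosome 9, 3335140 to 3391154, and Moap1 on chromosome 12, 102742230 to 102743661.

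Ccdc152, a coiled-coil protein gene, stood at 54.0 and 40.1 RPM in FGF2 and at 143 and 109.8 RPM in FGF10, with a log2 difference of −1.41 ± 0.25 (SE, adjusted p = 0.041 in limma). It lies on chromosome 15, 3280070 to 3303526, on the reverse strand, and its 3′ end overlaps that of the selenoprotein P gene, listed as Sepp1. Sepp1 stood at 4.57 and 3.16 RPM in FGF2 and at 17.4 and 14.1 RPM in FGF10. Both genes of the pair were thus lower in FGF2, and without strand in the counting their reads cannot be told apart.

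**Figure D2:**
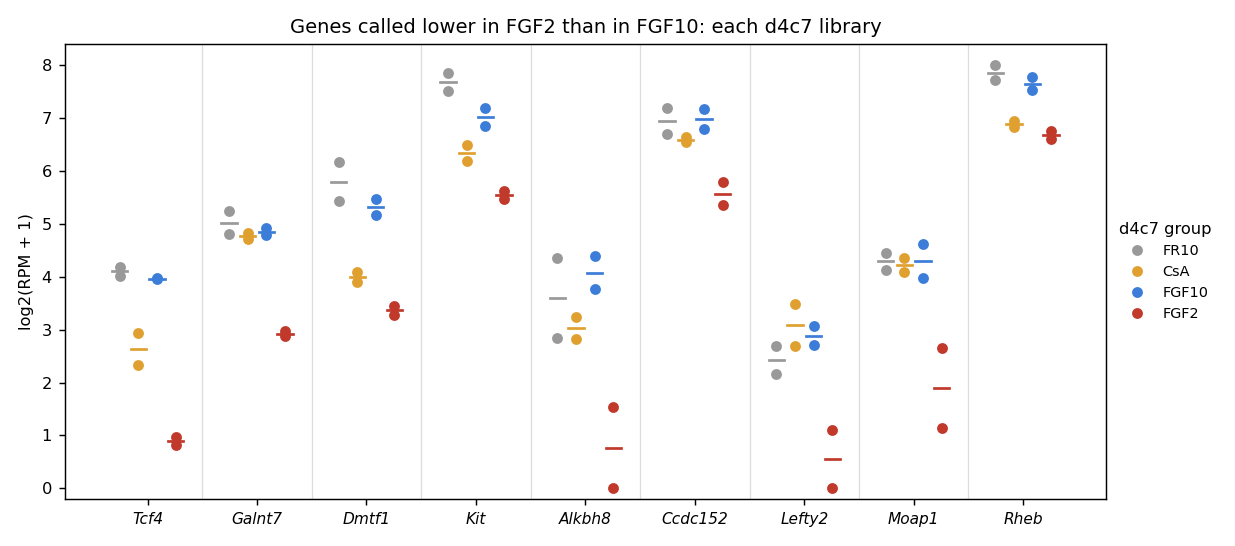
Each point is 1 library of the 9 called genes, as log2(RPM + 1), coloured by d4c7 group, and bars are group means. For each of the 9 genes both FGF2 points lie below both FGF10 points, as for Kit at 43.4 and 48.1 against 114 and 145 RPM.

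RefSeq promoters could be matched for 7 of the 9 called genes. The sequence upstream of both the RefSeq and the GENCODE start is shown for 3 called genes so that the shared letters can be seen (GRCm38.p6, 5′ to 3′ on the gene's strand, Kit at chr5:75574737-75574915, Dmtf1 at chr5:9161777-9162026, Galnt7 at chr8:57653056-57653305). Capitals mark the GC box GGGCGG or its reverse complement CCGCCC.
Kit: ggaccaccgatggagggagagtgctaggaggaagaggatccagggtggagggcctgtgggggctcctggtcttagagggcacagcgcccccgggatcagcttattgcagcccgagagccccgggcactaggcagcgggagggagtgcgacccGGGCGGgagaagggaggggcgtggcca
Dmtf1: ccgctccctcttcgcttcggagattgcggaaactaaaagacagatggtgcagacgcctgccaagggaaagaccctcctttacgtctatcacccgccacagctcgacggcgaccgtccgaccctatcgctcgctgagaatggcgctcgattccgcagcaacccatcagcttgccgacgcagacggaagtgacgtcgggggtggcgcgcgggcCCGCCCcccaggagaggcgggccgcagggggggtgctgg
Galnt7: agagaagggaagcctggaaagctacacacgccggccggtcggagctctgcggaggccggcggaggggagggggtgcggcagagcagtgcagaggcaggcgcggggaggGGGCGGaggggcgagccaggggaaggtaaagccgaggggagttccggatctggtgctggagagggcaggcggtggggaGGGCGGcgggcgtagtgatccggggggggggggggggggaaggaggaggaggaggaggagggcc
In the 250 bases before the RefSeq start, on either strand, the GC box occurred in 5 of the 7 called genes and in 63.0% of the promoters of tested genes. The ETS motif CCGGAAGT occurred in 0 of 7 against 6.8%, the E-box CACGTG in 1 (Rheb) against 9.1%, and the CRE TGACGTCA in 1 (Moap1) against 3.1%. These matches describe letters in a window and are not binding sites.

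Among the inhibitors that ERK signalling induces against itself, 9 of 15 tested genes were lower in both FGF2 libraries than in both FGF10 libraries and 0 were higher, but none passed the test. Among all genes 34.1% were lower in this way. The median of the list was −0.65, against −0.23 for all genes, and it was −0.45 after scaling. It was −0.34 with FGF2 replicate 1 alone and −1.09 with replicate 2 alone. Spred1, an inhibitor of RAF activation, stood at 11.04 and 3.89 RPM in FGF2, and at 51.9 and 22.6 RPM in FGF10 (log2 difference −2.21 ± 0.44, SE, adjusted p = 0.0569 in limma). Spred2, of the same family, stood at 28.5 and 32.1 RPM against 70.8 and 52.6 (−0.99 ± 0.27, adjusted p = 0.111). Dusp5, a nuclear ERK phosphatase, stood at 5.33 and 3.89 RPM against 14.5 and 20.8, and Spry1 at 13.7 and 10.9 against 46.0 and 26.3. The groups do not overlap for any of these 4 genes. The summed level of the 18 list genes in the files was 377.9 and 278.3 RPM in FGF2 and 574.3 and 516.5 in FGF10. It was 301.0 and 308.8 RPM in CsA, at the level of FGF2, and 498.4 and 511.0 in FR10. In CsA Spred1 stood at 12.7 and 6.95 RPM and Spry1 at 3.762 and 9.065, so low values of these 2 were not particular to FGF2. Spred2 and Dusp5 in CsA lay above both FGF2 libraries.

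Other members of these families were closer between the groups or near the detection limit. Dusp4, a nuclear phosphatase of ERK, stood at 144 and 113 RPM in FGF2 and at 187 and 177 RPM in FGF10, and FGF2 replicate 2 lay below the higher FR10 library, at 121 RPM. Dusp6, often used as a readout of FGF signalling, was close to the detection limit in all 4 libraries, at 0.761 and 0 RPM against 0 and 1.53. Spry4 overlapped between groups, at 4.95 and 11.4 RPM in FGF2 and 7.04 and 5.51 in FGF10. Spry2 did not overlap, at 4.19 and 8.02 RPM against 12.6 and 10.1.

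**Figure D3:**
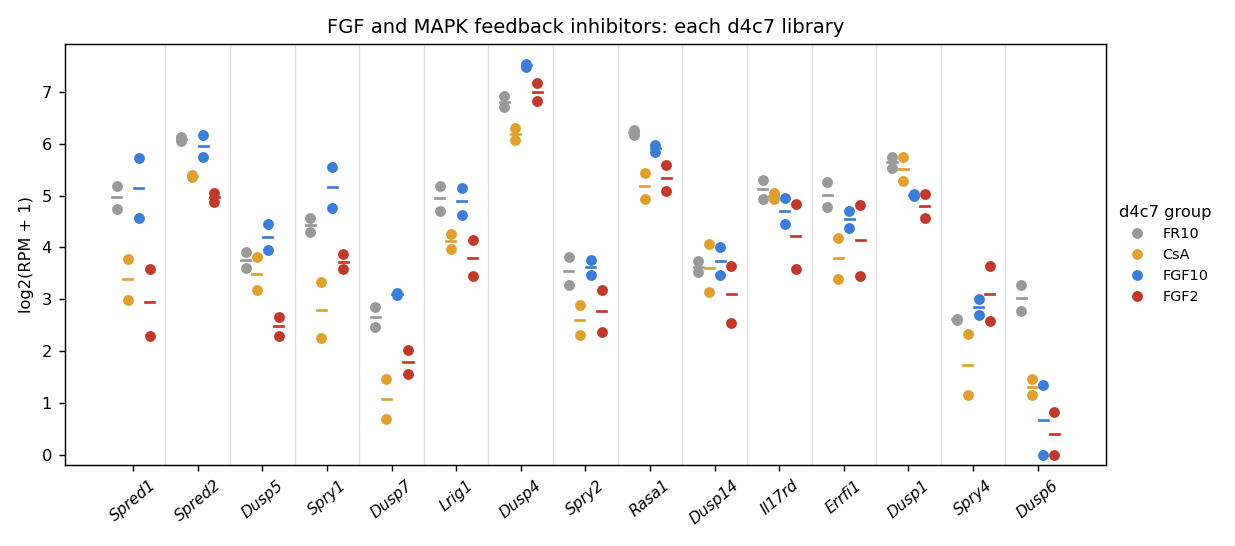
Each point is 1 library of the 15 tested feedback inhibitors, as log2(RPM + 1), coloured by d4c7 group, and bars are group means. Both FGF2 points lie below both FGF10 points in 9 genes, from Spred1 to Rasa1 on the axis, and the groups overlap in the other 6.

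The transcription factor genes that FGF induces gave no call among 15 tested, and their median was −0.09. Etv4 was nearly level between the groups, at 51.0 and 51.3 RPM in FGF2 and 55.6 and 53.5 in FGF10. Both FGF groups were above FR10, at 23.6 and 16.6 RPM, and CsA, at 8.39 and 4.83. Etv5 stood at 149 and 89.7 RPM against 192 and 169.8 (log2 difference −0.64 ± 0.28, SE, adjusted p = 0.274 in limma), with replicate 2 the low one in FGF2. Mycn, a MYC family factor, stood at 26.6 and 40.8 RPM against 61.9 and 78.9 (−1.06 ± 0.23, adjusted p = 0.0826). Myc overlapped, at 7.61 and 2.43 RPM against 21.5 and 4.59. Ccnd1, which encodes cyclin D1, was the gene of this list with the largest value in the other direction, at 11.8 and 11.4 RPM in FGF2 and 5.93 and 3.98 in FGF10 (1.10 ± 0.58, adjusted p = 0.347).

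Receptor genes overlapped between the groups. Fgfr1 stood at 72.3 and 73.6 RPM in FGF2 and at 73.4 and 58.7 RPM in FGF10, and Fgfr2 at 97.4 and 53.5 against 67.1 and 78.9. Fgfr3 stood at 22.8 and 10.7 RPM against 19.3 and 24.5, and Fgfr4 was listed at 0 in all 8 d4c7 libraries. Counts per gene do not separate the b and c receptor isoforms. Transcripts of the genes Fgf2 and Fgf10 were near 0, with Fgf2 listed at 0 in all 8 libraries and Fgf10 at 0.243 RPM in 1 of the 4. Fgf7, which encodes another ligand of the b isoform of FGFR2 and is typical of mesenchyme, stood at 3.04 and 1.46 RPM in FGF2 and at 26.7 and 6.42 in FGF10 (log2 difference −2.19 ± 0.78, SE, adjusted p = 0.18 in limma). Of 18 tested receptor, ligand and cofactor genes, 4 were lower without overlap, 0 were higher and 0 were called, with a median of −0.16. Over all genes 34.1% were lower and 12.4% higher without overlap. Of 31 genes of the RAS, ERK, PI3K and AKT pathways, 11 were lower and 5 higher without overlap, near these shares, Rheb was called, and the median was −0.03.

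Genes of early germ cells gave 1 call, Kit, among 20 tested, with 8 lower and 3 higher without overlap, near the 34.1% and 12.4% of all genes, and a median of −0.29. The uncalled genes given next all lie on the lower side, so they do not stand for the whole list. Pou5f1, given below, was 1 of the 3 higher genes, at 384 and 452 RPM in FGF2 and 335 and 376 in FGF10. Prdm14, a specification factor of the germ line, stood at 47.9 and 24.1 RPM in FGF2 and 53.8 and 59.7 in FGF10 (log2 difference −0.72 ± 0.31, SE, adjusted p = 0.26 in limma). Tfap2c stood at 57.8 and 49.1 RPM against 71.2 and 72.5 (−0.42 ± 0.26), and Dppa3, also known as Stella, at 836 and 666 against 892 and 976 (−0.32 ± 0.24). Prdm1, or Blimp1, stood at 26.3 and 9.96 RPM against 29.3 and 38.9 (−1.01 ± 0.43, adjusted p = 0.26). The sort used a Blimp1 reporter, so the level of Prdm1 is not independent of how the cells were collected. In each of these 4 genes FGF2 replicate 2 was the lowest of the 4 libraries.

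The germ cell marker list as a whole had 8 of 10 genes lower without overlap and 0 higher, against 34.1% and 12.4% of all genes, a median of −0.45 with both replicates and −0.27 without FGF2 replicate 2, and 0 genes at 0 in all 4 libraries. Its summed level was 2115.4 and 1767.7 RPM in FGF2 and 2130.1 and 2605.5 in FGF10. These sums did not overlap, but those of the replicate 1 libraries were close. Dppa3 and Dazl made up most of each sum, so the sums say little about the other members. The sums of the early germ cell list went the other way, at 9575.5 and 9010.7 RPM in FGF2 and 8651.9 and 8904.3 in FGF10. Core pluripotency genes showed no single direction: Pou5f1 stood at 384 and 452 RPM in FGF2 against 335 and 376, and Sox2 at 206 and 149.7 against 224 and 264. Nanog overlapped, at 66.6 and 36.9 RPM against 58.2 and 89.0. Markers of pluripotent stem and embryonic germ cell lines had 2 of 12 lower and 2 higher without overlap, fewer than the share of all genes on the lower side, with a median of −0.22, close to that of all genes.

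Later germ cell and piRNA genes gave 0 calls among 16, with 5 lower and 4 higher without overlap, against 34.1% and 12.4% of all genes, and a median of −0.14. Dazl, an RNA-binding protein of germ cells, stood at 954 and 844 RPM in FGF2 and 773 and 1112 in FGF10, and Ddx4 at 45.3 and 21.1 against 51.9 and 63.3. Asz1, a piRNA pathway protein, stood at 4.57 and 0 RPM against 9.27 and 21.4 (log2 difference −2.68 ± 0.76, SE, adjusted p = 0.126 in limma). Of the DNA methylation genes, Tet1, a demethylase, stood at 104 and 82.4 RPM against 141 and 161 (−0.70 ± 0.20, adjusted p = 0.134). Dnmt3l, a cofactor of the de novo methyltransferases, went the other way, at 54.4 and 56.4 RPM in FGF2 and 11.9 and 30.6 in FGF10 (1.48 ± 0.58, adjusted p = 0.217). Dnmt3b stood at 64.7 and 65.9 RPM against 42.3 and 59.1. All 4 FGF libraries were above the FR10 and CsA libraries for Dnmt3b, where the highest value was 26.9 RPM, and for Dnmt3l, where it was 10.3 RPM. None of the 12 methylation genes was called, and their median was −0.41.

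Genes of mitosis were mostly on the lower side, with 20 of 27 lower without overlap, against 34.1% of all genes, 0 higher and 0 called. Their median was −0.49, and −0.26 after scaling. With FGF2 replicate 1 alone it was −0.31, and with replicate 2 alone −0.66. Prc1, a protein of the spindle midzone, stood at 29.3 and 21.4 RPM in FGF2 and at 54.1 and 54.8 in FGF10 (log2 difference −1.09 ± 0.26, SE, adjusted p = 0.0882 in limma). Aurkb, a kinase of chromosome segregation, stood at 80.3 and 67.3 RPM against 122 and 118 (−0.70 ± 0.19, adjusted p = 0.116), and Nusap1, a spindle protein, at 73.8 and 55.7 against 126 and 105. Genes of DNA replication had a median of −0.13, with 10 of 27 lower and 5 higher without overlap, near the shares of all genes. Pcna, the replication clamp, stood at 363 and 369 RPM in FGF2 and at 637 and 794 in FGF10 (−0.96 ± 0.23, adjusted p = 0.0919).

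Splicing factor genes had 18 of 26 lower without overlap, against 34.1% of all genes, 0 higher and 0 called, with a median of −0.58, and −0.34 after scaling. Srsf6, which selects exons, stood at 409 and 263 RPM in FGF2 and 522 and 569 in FGF10 (log2 difference −0.73 ± 0.23, SE, adjusted p = 0.145 in limma). Hnrnpa2b1 stood at 374 and 235 RPM against 543 and 727 (−1.08 ± 0.38, adjusted p = 0.176). FGF2 replicate 2 was the lowest library for both, and the median of the list was −0.25 with replicate 1 alone and −0.76 with replicate 2 alone.

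Cytosolic ribosomal protein genes went the other way, with 33 of 50 higher and 2 lower without overlap, against 12.4% and 34.1% of all genes, although none was called. Their median was 0.30, and 0.54 after scaling. It was 0.19 with FGF2 replicate 1 alone and 0.43 with replicate 2 alone. The 50 genes together took 229154.2 and 255406.4 RPM in FGF2 and 202307.7 and 195182.1 in FGF10. CsA, at 229995.4 and 227197.7 RPM, lay close to FGF2 replicate 1 and above FGF10, and FR10, at 185009.1 and 190914.9, lay below FGF10. Rps15 had the smallest p among them, at 326 and 465 RPM against 245 and 227 (log2 difference 0.72 ± 0.19, SE, adjusted p = 0.11 in limma), and Rps23 stood at 7810.2 and 8757 against 6291 and 5412. RPM is a share of each library, and how far the share of these genes bears on the median of all genes was not tested. Genes of oxidative phosphorylation and mitochondrial ribosomal proteins had medians of 0.03 and 0.01, with 13 of 42 higher and 6 lower, and 6 of 27 higher and 7 lower, without overlap.

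**Figure D4:**
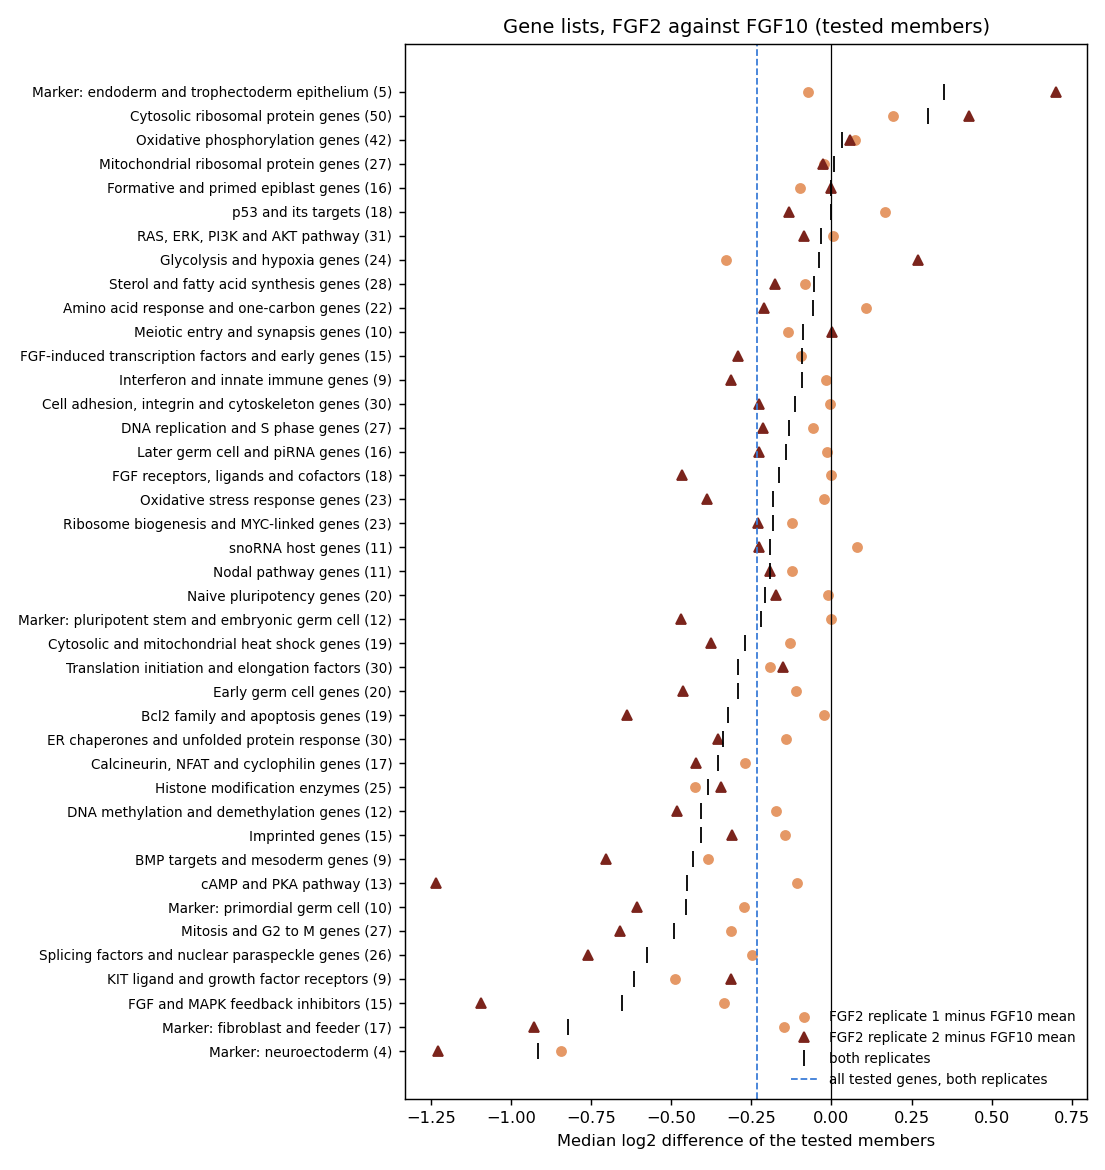
For each gene list with at least 4 tested members (number in brackets), the median log2 difference from the FGF10 mean is given for FGF2 replicate 1 (circle), for replicate 2 (triangle) and for both (bar), and the dashed line is the median of all genes, −0.23. Feedback inhibitors, splicing and mitosis lie to the left of the line in both replicates, as do other lists such as histone enzymes and BMP targets. Ribosomal protein genes lie to the right in both, as do others such as oxidative phosphorylation. The median of all genes was −0.123 for replicate 1 and −0.299 for replicate 2.

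Fibroblast and feeder markers had a median of −0.82, which was −0.15 without FGF2 replicate 2, and their part in the results above was not tested. Of 17 tested, 4 were lower and 1 higher without overlap, against 34.1% and 12.4% of all genes, and none was called. Of all 28 in the files, 8 were lower and 2 higher, and Lum, Thy1 and Mgp were at 0 in all 4 libraries. The summed level was 619.1 and 303.0 RPM in FGF2, 800.5 and 608.2 in FGF10, 849.7 and 687.1 in CsA and 1015.7 and 928.4 in FR10. Fn1 and Sparc made up most of each sum, so the sums say little about the other members. Fn1 stood at 334 and 118 RPM in FGF2 and at 325 and 423 in FGF10, and Sparc at 125 and 104 against 100 and 92.7. The FGF10 replicates differed too, with a median of −1.70 between replicate 2 and replicate 1. Among the 4 tested genes lower without overlap, Col3a1 stood at 10.3 and 0 RPM in FGF2 and at 60.4 and 10.7 in FGF10. Cxcl12, another of them, stood at 1.9 and 0.243 against 21.1 and 5.81. Most tested members overlapped. For Dcn, Loxl1, Col1a1 and Fbln2, both FGF2 libraries lay between the 2 FGF10 replicates, with FGF10 replicate 2 the lowest. Dcn stood at 50.2 and 22.1 RPM in FGF2 and at 88.2 and 10.7 in FGF10. The feedback inhibitors had a median of −0.074 between the same 2 FGF10 replicates, and all tested genes one of 0.024. Spred1, Spred2, Spry1, Dusp4, Spry2 and Fgf7 were higher in FGF10 replicate 1. Dusp5, Rasa1 and the rest of the 9 feedback inhibitors without overlap were higher in FGF10 replicate 2. Of the 9 called genes, 4 (Galnt7, Alkbh8, Lefty2 and Ccdc152) were higher in FGF10 replicate 1 and the other 5 in replicate 2. These are differences within FGF10, and how they bear on the difference between FGF2 and FGF10 was not tested. Of the other marker lists, 4 of 15 endoderm and trophectoderm, 4 of 8 neuroectoderm, 4 of 10 endothelium and blood and 3 of 8 later male germ cell genes were at 0 in all 4 libraries, among them Foxa2, Sox1, Ptprc and Sohlh1. Others were detected, such as Pax6 at 40.3 and 34.8 RPM in FGF2 and 50.8 and 64.6 in FGF10, and Pecam1, which germ cells also express, at 97.8 and 78.3 against 81.6 and 97.9. The summed levels in FGF2 and FGF10 were 35.8, 49.3, 31.5 and 23.3 RPM for the endoderm and trophectoderm list and 63.2, 48.8, 91.6 and 96.7 RPM for neuroectoderm. For endothelium and blood they were 108.1, 78.7, 93.8 and 104.3 RPM, and for later male germ cells 10.3, 10.0, 11.9 and 8.9 RPM.

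The difference between groups also varied with transcript length. Tested genes were put in 5 bins of nearly equal size by their longest annotated transcript, which could be matched for 98.1% of them. The median difference was −0.03 in the bin with the shortest, up to 1970 bases, and −0.36 in the bin with the longest, from 5304 bases. FGF2 replicate 1 against the FGF10 mean went from −0.03 to −0.19 from the first bin to the last, and replicate 2 from −0.02 to −0.48. The 2 FGF10 replicates differed by 0 and 0.03 in the same bins. Ribosomal protein genes had a median longest transcript of 1114.5 bases, against 3414 for all tested genes with a length, and the mitosis and splicing lists had 3526 and 3619. How far length bears on the list medians was not tested. Of the 9 called genes, 2 belonged to the bin of shortest transcripts and 2 to that of the longest.

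**Figure D5:**
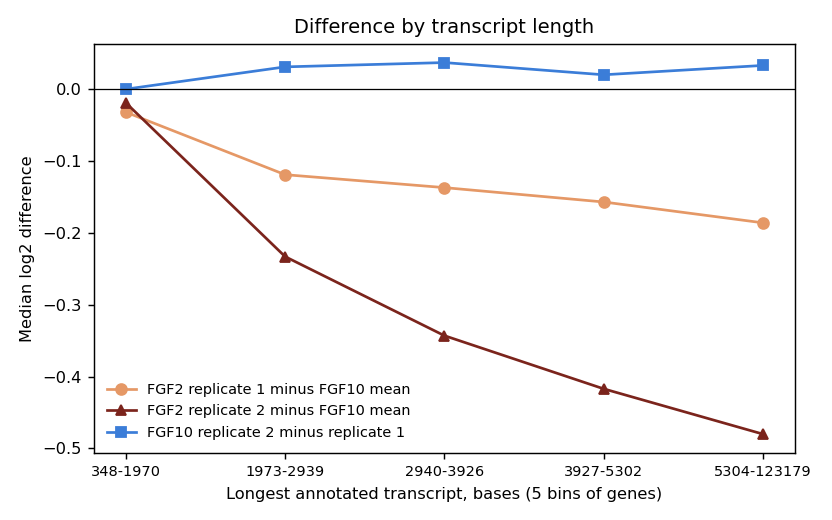
The median log2 difference is plotted by bin of transcript length in bases, for each FGF2 replicate minus the FGF10 mean and for FGF10 replicate 2 minus replicate 1. The FGF2 lines descend to −0.19 and −0.48, and the FGF10 line stays between 0 and 0.04.

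No gene was called higher in FGF2, and some of those near the threshold are given as values. Ptges, the prostaglandin E synthase gene, stood at 14.5 and 10.9 RPM against 1.11 and 2.75, with at most 3.8 in FR10 and CsA (log2 difference 2.27 ± 0.56, SE, adjusted p = 0.0947 in limma), and it was called higher with a pseudocount of 10 RPM. Lrp8, a receptor of reelin, stood at 3.04 and 7.05 RPM in FGF2 and at 0 and 0.306 in FGF10 (2.32 ± 0.51, adjusted p = 0.0826). Fst, which encodes the activin antagonist follistatin, stood at 4.19 and 3.16 RPM against 0 and 0.612, but the FR10 libraries reached 4.65 and 3.11. Hspb1, a small heat shock protein, stood at 540.4 and 1058 RPM against 267 and 383 (1.24 ± 0.39, adjusted p = 0.145). For Ptges and Hspb1 both FGF2 libraries were above the other 6 d4c7 libraries.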

How the data were processed

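The 18 libraries were read by SC3-seq after amplification from 1 ng of RNA, as the labels state. The authors deposited RPM (read numbers scaled to a common total) per gene symbol, without length correction, with cutadapt 1.3, TopHat 1.4.1, Cufflinks 2.2.0 and build mm10 named in the submitters' processing notes. The annotation, the counting rule and its use of strand were not given in the sources used here. Inferred depth ran from 2129326 to 7547917 reads; it covers counting error only, since amplified reads are not independent molecules.

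Genes at 10 RPM or more in at least 2 libraries (9561) were tested with limma 3.58.1 in R 4.3.3 on log2(RPM + 1), a scale that understates changes of low genes. Each of the 9 groups had its own mean, the variance followed a trend, 9 residual degrees of freedom gave a median residual SD of 0.37, and p-values were adjusted by Benjamini-Hochberg over all genes. Groups came from the titles. Gene lists (44, with 958 genes, 932 in the files and 764 tested) are described by counts and medians, without a test, and the mitochondrially encoded list had 0 tested members. The libraries compared, the gene lists and the naming rule were chosen with earlier results of these data known. Named are the called genes, up to 12 in each direction by smallest p, up to 3 uncalled members of each list, and a panel of germ cell and FGF genes. Sepp1, Spry1 and the promoters shown were chosen after values were seen. Simulated data with 200 changed genes tested the procedure. Gene positions are from GENCODE (GRCm38) and promoters from RefSeq. Alternatives were pseudocounts, filters, scaling, the libraries fitted, the variance model, voom and leaving out libraries. One gene that the naming rule allows is not reported here.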

Additional observations from a re-analysis of the deposited data

How the results depend on the processing

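The count of 9 calls, all lower, moved with most settings. It was 14 (all lower) with a pseudocount of 0.1 RPM, 7 with one of 10 RPM (5 lower and 2 higher), 48 with no filter (31 lower, 17 higher), 6 with a filter at 50 RPM, 13 without the variance trend (12 lower, 1 higher) and 3 (all lower) with median-ratio scaling. It was 1 (lower) with array weights and 0 with voom. With the 12 cultured, the 8 d4c7 or the 4 FGF libraries alone limma called 0 genes, while 1065, 1730 and 995 genes had an unadjusted p under 0.05. Voom had 1720. Without the 3 replicate 2 libraries that stand apart the count was 180 (168 lower, 12 higher), and 71 (57 lower, 14 higher) with scaling as well, a setting chosen after seeing the data. Leaving out 1 of the 4 libraries at a time gave 1 to 708 calls, 1 to 670 lower and 0 to 38 higher. The cause of these shifts was not tested.

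List members called were 3 (Kit, Rheb and Lefty2). They were 1 with a pseudocount of 10 RPM and without the variance trend, 24 without the 3 libraries and 13 with scaling as well, and 0 to 57 with 1 library left out. They were 0 with scaling, array weights, voom, or the fits of 12, 8 or 4 libraries.

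Deviations of same-numbered FGF2 and FGF10 libraries correlated at 0.0339, and those of all pairs of groups at −0.102 to 0.34. These values do not settle whether the replicate numbers pair the samples, and the main fit did not pair them. With the number as a replicate block, the 4 FGF libraries gave 0 calls and 0 list members, and the 18 libraries, a setting chosen after seeing the data, gave 16 calls, all lower, with all 9 genes among them.

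Of 82 genes, 80 kept their direction in every alternative that gave them a value, at most 19. Many of these genes were named for a small p or for groups that do not overlap. Where groups do not overlap, leaving out 1 library cannot turn the direction, so this count is not separate support. Ddit3 (1.17) and Igfbp5 (1.18) turned to −0.69 and −0.23 without FGF2 replicate 1, and came to 3.04 and 2.60 without FGF2 replicate 2. Of 41 list medians, 24 kept their sign under median-ratio scaling, 33 without FGF2 replicate 2 and 17 without the 3 libraries and with scaling. At these depths 3 reads equal 0.729 to 1.14 RPM in the 4 libraries, which limits Tcf4, Alkbh8 and Lefty2.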

Other observations

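Other gene groups followed the median of all genes, −0.23, to different degrees, and apart from Kit and Lefty2 none of their members was called. Nodal pathway genes had a median of −0.19, with 3 of 11 lower and 2 higher without overlap (34.1% and 12.4% of all genes), and Lefty2 was the called member. Genes for cAMP and protein kinase A had a median of −0.45, but −0.11 with FGF2 replicate 1 alone and −1.23 with replicate 2 alone. Creb1, a transcription factor that protein kinase A activates, stood at 8.75 and 2.19 RPM in FGF2 and 16.7 and 19.6 in FGF10 (log2 difference −1.77 ± 0.45, SE, adjusted p = 0.104 in limma). Histone-modifying enzymes had a median of −0.39 that was close in the 2 replicates, −0.43 and −0.35, with 10 of 25 lower and 1 higher without overlap, the lower count near the share of all genes. Suv39h1, a histone H3 lysine methyltransferase, stood at 12.9 and 6.08 RPM against 23.4 and 21.7 (−1.24 ± 0.40, adjusted p = 0.155).

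Chaperones of the endoplasmic reticulum had a median of −0.34, with 10 of 30 lower and 0 higher without overlap, against 34.1% and 12.4% of all genes, so the lower count was at the share of all genes. Hspa5, also known as BiP, stood at 147 and 112 RPM in FGF2 and at 222 and 269 in FGF10, below the 659.8 and 697 RPM of CsA (−0.92 ± 0.31, SE, adjusted p = 0.168 in limma). The highest values of its stress partner Ddit3 came from 1 library: it stood at 44.5 RPM in FGF2 replicate 1 and 2.43 in replicate 2, and at 5.56 and 3.67 in FGF10. Sterol and fatty acid genes had a median of −0.05, yet Stard4, a cholesterol transfer protein, stood at 5.33 and 3.89 RPM against 22.2 and 22.6 (−2.08 ± 0.57, adjusted p = 0.116). Glycolysis and hypoxia genes split by replicate, with a median of −0.33 for FGF2 replicate 1 and 0.27 for replicate 2. Among imprinted genes H19 stood at 125 and 100.1 RPM in FGF2 and at 45.6 and 68.8 in FGF10 (0.99 ± 0.38, adjusted p = 0.213), while Plagl1 was listed at 0 in both FGF2 libraries and at 2.59 and 1.53 RPM in FGF10.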
